A study of Mus musculus with 12 samples.

Results

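The effect of 6-mercaptopurine (6-MP) on ENS primary cultures under lipopolysaccharide (LPS) was read from 6 of the 12 microarrays of the study: the 3 arrays of cultures given 6-MP and then LPS (6-MP + LPS) and the 3 arrays of cultures given LPS without the drug (LPS). All 22206 transcript clusters of the array were compared, a transcript cluster being the set of probes that measures 1 gene. ENS primary cultures are mixed cultures of the enteric nervous system grown from the gut of mouse embryos, taken at e14.5 according to the labels and at e12.5 to e14.5 according to the methods, from the Sox10flox mouse line, whose modified allele the methods set aside as having no bearing on the cultures. In the 6-MP + LPS group, 50 µM 6-MP was given 16 h before 10 ng/ml LPS, which then acted for 6 h. The LPS group received the same LPS without 6-MP, the 6-MP group the drug without LPS, and the control group neither. All 4 groups share the mouse line and the culture medium, and the controls were left untreated. The methods give the 3 replicates of a group as separate experiments. The cultures hold muscle, epithelium, macrophages and connective tissue beside neurons and glia, so that a level belongs to the mixture, and fewer cells of a type cannot be told apart from less RNA per cell.

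6-MP is a thiopurine used in inflammatory bowel disease. Cells convert it to thioguanine nucleotides, which are built into DNA and interfere with replication, and it has been reported to act on the orphan nuclear receptors of the NR4A family. LPS, a component of the outer membrane of Gram-negative bacteria, is sensed by Toll-like receptor 4 and switches on NF-kB and interferon-stimulated genes, among them cytokines and the chemokines that draw leukocytes into the gut wall.

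The values were the log2 values of the study, with array medians between 7.41 and 7.53. Of the cell type markers, the neuronal Elavl4 averaged 11.11 in 6-MP + LPS and 11.08 in LPS, and the epithelial Epcam 14.14 in 6-MP + LPS and 14.51 in LPS. Elavl4 had the highest log2 difference of the 5 neuronal markers measured, which ran from -0.53 to 0.03 (median -0.42). The glial markers Sox10 and S100b lay in both groups under 5.78, called the silent level here: 90% of the 1452 clusters for odorant, vomeronasal and taste receptors, which gut cultures are not known for, averaged less. Glia were therefore represented by Fabp7, Gfap and Erbb3. Fabp7 had the lowest log2 difference of the 5 glial markers measured, which ran from -0.99 to 0.18 (median -0.23). 4 arrays, 1 in each group, stood apart from the other 8 on the second principal component: array 1 of 6-MP + LPS, array 2 of LPS, array 1 of 6-MP and array 2 of control. The labels do not say which arrays of different groups came from the same experiment, so the groups were compared as unpaired.

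Few genes passed the limits for an effect of 6-MP under LPS. With the limits of the study's methods (unadjusted p under 0.05 and at least 2-fold), limma called 9 clusters higher in 6-MP + LPS than in LPS (0.0405% of all clusters) and 17 lower (0.0766%), 26 in all (0.117%). After Benjamini-Hochberg adjustment the count was 0, with a lowest adjusted p of 0.795. At an unadjusted p under 0.05 with no limit on the fold, 490 clusters were higher (2.21%) and 310 lower (1.4%), together 3.6% of all clusters, against the 5% that this threshold allows with no change at all. That share belongs to this fit: with the standing apart of the 4 arrays as a covariate, 746 were higher and 685 lower. The count at the adjusted threshold was 0 there too, with a lowest adjusted p of 0.186. The median log2 difference over all clusters was 0.00, with 49.3% below 0 and 50.7% above 0, and with 55.3% below 0 among the 15100 clusters above the silent level. Both groups of arrays were separated without overlap in 1052 clusters with 6-MP + LPS above (4.74%) and in 788 with 6-MP + LPS below (3.55%). The median was 0.08 in the 7106 clusters under the silent level and -0.06 in the 3402 clusters with a mean between 10 and 12, so that dim genes lay slightly above 0 and bright genes slightly below. In what follows a gene rose or fell where limma gave an unadjusted p under 0.05, and was called where it also passed 2-fold. A difference given with neither word did not pass unless its sentence says so, and the adjusted p-values of all named genes but Tmem100 were 1.00.

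**Figure D1:**
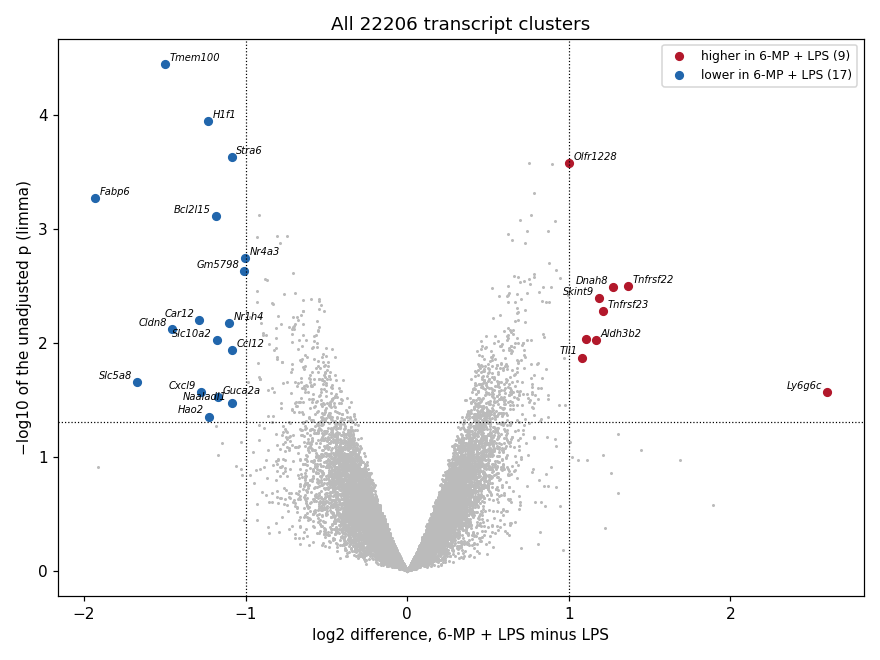
Log2 difference between 6-MP + LPS and LPS (x axis) against −log10 of the unadjusted limma p (y axis) for all 22206 transcript clusters, with the 9 clusters called higher in red and the 17 called lower in blue. Most clusters sit between the dotted limits of 2-fold, Fabp6 lies farthest to the left at -1.93 and Ly6g6c farthest to the right at 2.60.

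The count of called clusters, 9 higher and 17 lower, was larger in every fit without 1 array. Such a fit rests on 2 arrays in 1 group, so that a rise alone does not single out an array. Without array 1 of 6-MP + LPS the count was 39 higher and 165 lower. Without array 2 of that group it was 18 higher and 33 lower, and without array 3 of that group 19 higher and 23 lower. Without array 1 of LPS it was 24 higher and 37 lower, without array 2 of LPS 22 higher and 29 lower, and without array 3 of LPS 21 higher and 32 lower. Leaving out the 4 arrays that stood apart gave 32 higher and 63 lower. All 26 called clusters kept their direction in each of these fits. Of the 26, 7 stayed past both limits whichever of the 6 arrays was left out: Fabp6, Cldn8, Car12, Bcl2l15, H1f1, Tnfrsf22 and the dim Tmem100.

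The largest decrease was that of Fabp6, the ileal bile acid-binding protein, and 2 more genes of bile acid handling fell with it: Slc10a2, the apical sodium-dependent bile acid transporter that brings bile acids into the ileal epithelial cell, and Nr1h4, the nuclear bile acid receptor FXR. Fabp6 had log2 values of 6.83, 6.98 and 6.61 in the 6-MP + LPS arrays and 7.86, 9.51 and 8.84 in the LPS arrays. It was 3.81-fold lower in 6-MP + LPS (log2 difference -1.93 ± 0.42 (SE), limma adjusted p = 1.00). The 3 arrays with the drug lay close together, and all of them lay below the lowest LPS array.

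Slc10a2 had 7.44, 8.05 and 6.78 in 6-MP + LPS and 8.38, 8.98 and 8.45 in LPS, a difference of -1.18 ± 0.38. Nr1h4 had 11.58, 10.96 and 10.92 in 6-MP + LPS and 11.89, 12.66 and 12.21 in LPS, a difference of -1.10 ± 0.34. Neither gene overlapped between the groups, but the gap was narrow, and array 1 of 6-MP + LPS and array 1 of LPS were the neighbours for Nr1h4. Without array 3 of 6-MP + LPS the difference of Slc10a2 was -0.86 and that of Nr1h4 -0.98, and without array 2 of LPS they were -0.99 and -0.90, which ended both calls.

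Of the 19 listed genes of bile acid handling, all of them measured and 15 above the silent level, 3 fell, none rose and 16 did not pass the unadjusted threshold, against 1.4% of all clusters lower and 2.21% higher at that threshold. 14 differences lay below 0, against 49.3% of all clusters, and the median was -0.17 (-0.02 without array 2, -0.31 without array 1 and -0.26 without array 3 of 6-MP + LPS, and -0.28 without array 2 of LPS), against 0.00 over all clusters. Without the 4 arrays that stood apart the median was -0.23 and 5 of the 19 were lower, against 2.73% of all clusters. With the standing apart as a covariate 6 were lower, against 3.08% of all clusters. The exporters of the basolateral membrane, Slc51a and Slc51b, which together form the organic solute transporter, differed by -0.95 ± 0.52 and -1.06 ± 0.63, and their groups overlapped. Both had their highest 6-MP + LPS value in array 1 (11.29 and 9.36) and their highest LPS value in array 2 (12.05 and 10.40), the arrays that stood apart. Without array 1 of 6-MP + LPS they differed by -1.48 and -1.51, past both limits. Abcg5, a subunit of the sterol exporter, differed by -0.73 ± 0.39, and Abcc2, an organic anion exporter and the brightest member of the list, by -0.05 ± 0.23.

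The promoter of Fabp6 is shown because Fabp6, a known target gene of FXR, had the largest decrease. The 250 bases before its start site, from RefSeq (GRCm38.p6, chr11:43601563-43601812, minus strand), were searched on both strands for the inverted repeat bound by FXR, AGGTCA and TGACCT with 1 base of any kind between them, with up to 2 mismatches. Capitals mark the 2 matches.
Fabp6: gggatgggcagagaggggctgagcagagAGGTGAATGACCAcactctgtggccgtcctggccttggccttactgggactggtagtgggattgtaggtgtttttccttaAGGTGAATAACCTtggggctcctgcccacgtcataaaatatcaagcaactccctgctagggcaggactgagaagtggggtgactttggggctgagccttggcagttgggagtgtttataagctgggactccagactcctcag
The matches lie 222 to 210 and 142 to 130 bases before the start site. Such a match was found in 1.14% of 27025 promoters of this length, and in 2 of the 15 genes of bile acid handling with a promoter sequence, Fabp6 and Abcb11, the bile salt export pump of the liver, which lay under the silent level. A match describes the letters and was not tested as a binding site.

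Next come 7 further called genes that fell, of which Guca2a alone was in the list of epithelial genes. The other clusters called lower are given further below. Slc5a8, a sodium-coupled transporter of short-chain fatty acids, had 8.96, 8.15 and 8.45 in 6-MP + LPS and 9.44, 10.81 and 10.33 in LPS (difference -1.67 ± 0.64). Cldn8, a claudin of the tight junction, had 10.17, 10.12 and 9.29 in 6-MP + LPS and 10.62, 12.13 and 11.21 in LPS (-1.46 ± 0.46). The groups of both genes were apart, with array 2 of LPS the highest each time.

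Bcl2l15, a member of the Bcl-2 family, had 10.73, 10.20 and 10.16 in 6-MP + LPS and 11.57, 11.83 and 11.25 in LPS (-1.19 ± 0.27). Car12, a membrane-bound carbonic anhydrase, had 8.47, 7.68 and 7.27 in 6-MP + LPS and 9.15, 9.62 and 8.50 in LPS (-1.28 ± 0.39). Naaladl1, a peptidase of the ileal brush border, had 9.40, 8.63 and 8.08 in 6-MP + LPS and 9.75, 9.94 and 9.68 in LPS (-1.09 ± 0.46). The groups did not overlap in these 3 genes. For Car12, array 1 of 6-MP + LPS all but reached array 3 of LPS.

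Guca2a and Hao2 passed both limits with overlapping arrays. Guca2a, the gene of the peptide guanylin, had 9.75, 10.64 and 9.35 in 6-MP + LPS and 10.64, 11.31 and 11.30 in LPS (-1.17 ± 0.48). Hao2, a peroxisomal hydroxy acid oxidase that is named here after its values were seen, had 10.11, 8.69 and 8.89 in 6-MP + LPS and 9.91, 11.41 and 10.06 in LPS (-1.23 ± 0.55). In Hao2 the overlap came from array 1 of 6-MP + LPS alone, and array 2 of LPS was the highest.

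These calls were not all stable. Slc5a8 was no longer past the unadjusted p, and so lost its call, without array 2 of 6-MP + LPS (-1.49), array 3 of 6-MP + LPS (-1.64), array 2 of LPS (-1.37) or array 3 of LPS (-1.61). Hao2 lost it without array 2 of 6-MP + LPS (-0.96), array 3 of 6-MP + LPS (-1.06) or array 2 of LPS (-0.75). Guca2a lost it without array 1 or 3 of 6-MP + LPS (-1.09 and -0.89) and without array 2 or 3 of LPS (-1.05 and -1.06). Naaladl1 kept it only without array 1 of 6-MP + LPS. Its difference was -1.05 without array 2 and -0.78 without array 3 of 6-MP + LPS, and -1.11, -1.01 and -1.14 without arrays 1, 2 and 3 of LPS. Cldn8, Car12 and Bcl2l15 kept theirs throughout these 6 fits.

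The list of epithelial genes had a smaller share of members past the threshold than that of bile acid handling. Its median was not nearer to 0 than the -0.17 of that list. Of 44 listed epithelial genes, 43 were measured, 1 fell (Guca2a), none rose and 42 did not pass, with 34 differences below 0 (49.3% of all clusters) and a median of -0.23. Muc13, a transmembrane mucin and the brightest member, differed by -0.14 ± 0.33. The 6 epithelial marker genes Epcam, Cdh1, Krt8, Krt19, Vil1 and Cdx2 all lay above the silent level, differed by between -0.67 and -0.01 and averaged 12.85 to 14.15 per array in 6-MP + LPS and 13.26 to 14.09 in LPS. The mean over the 43 genes followed the arrays that stood apart: it was 12.28, 10.94 and 11.10 in 6-MP + LPS and 11.39, 12.18 and 11.45 in LPS. Without array 1 of 6-MP + LPS the median was -0.70 with 15 genes lower, whereas without array 2 of 6-MP + LPS it was 0.05 and without array 2 of LPS 0.04, and without array 3 of 6-MP + LPS -0.02. The part of the epithelial content of the arrays in the decreases above was not tested. Without the 4 arrays that stood apart, the median of the epithelial list was -0.38. There 36 of the 43 genes lay below 0 and 11 were lower at the unadjusted threshold, against 2.73% of all clusters. In that fit Guca2a (-0.97) and Slc10a2 (-0.997) were no longer past both limits.

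**Figure D2:**
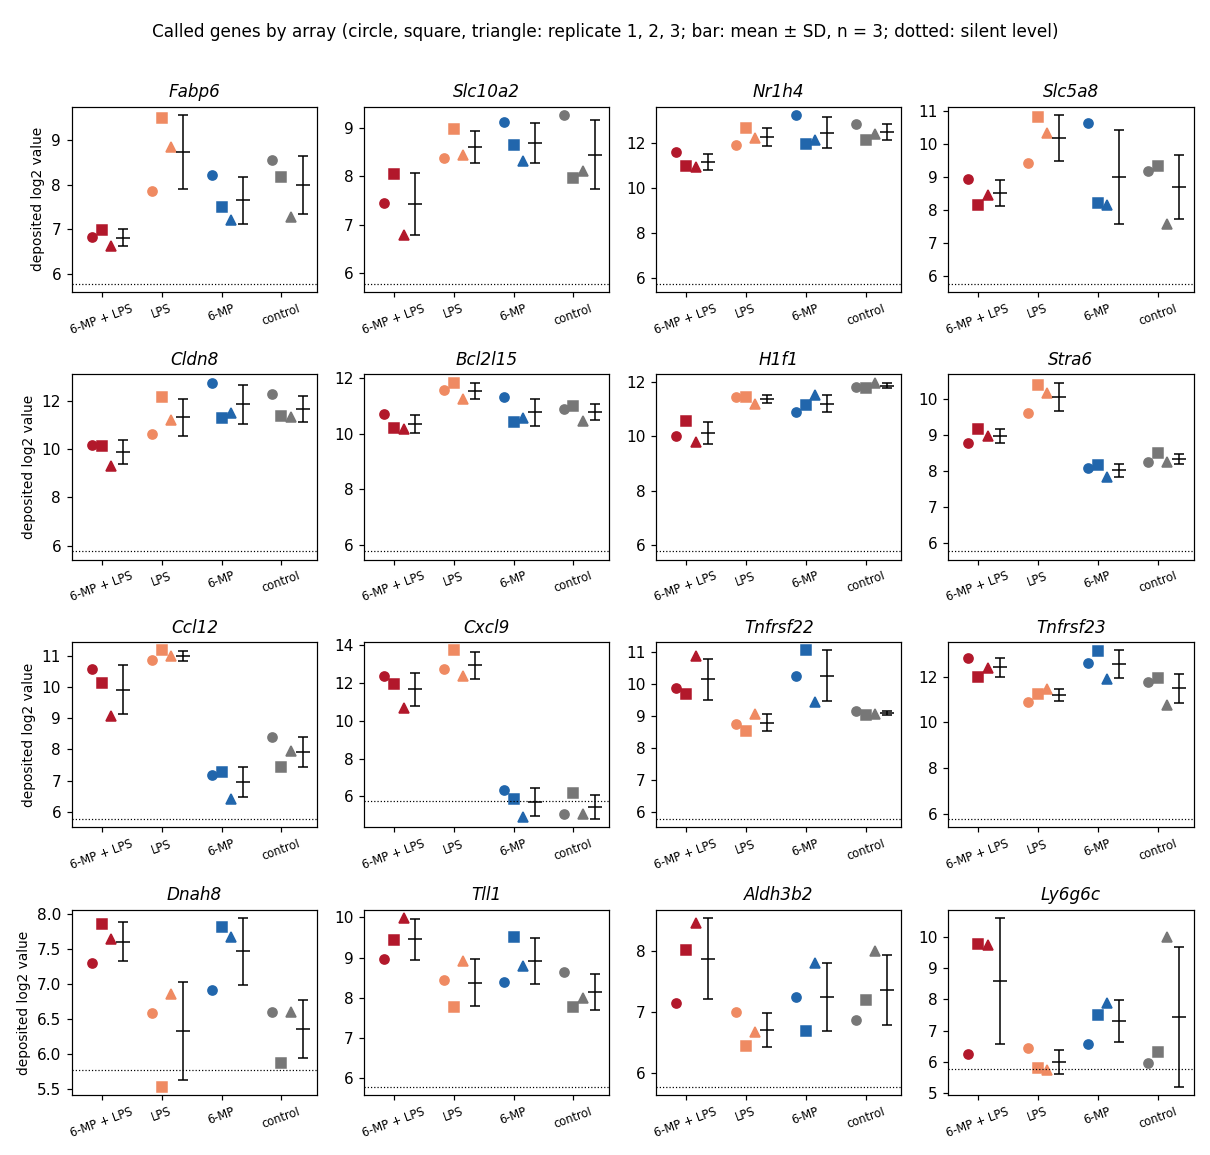
Log2 values of 16 called genes by array (y axis, 1 panel a gene) in the groups 6-MP + LPS, LPS, 6-MP and control, with symbols for the replicate numbers, a bar for the mean ± SD of the 3 arrays and a dotted line at the silent level of 5.78. Fabp6, H1f1, Bcl2l15, Tnfrsf22 and Tnfrsf23 show 3 arrays of 6-MP + LPS apart from the 3 of LPS, whereas in Ly6g6c 1 array of 6-MP + LPS lies with the LPS arrays.

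Most histone genes lay lower with the drug. The linker histone gene H1f1, whose protein sits on the DNA between nucleosomes, had 10.02, 10.57 and 9.81 in 6-MP + LPS and 11.44, 11.45 and 11.20 in LPS. It was 2.35-fold lower in 6-MP + LPS (-1.23 ± 0.22, limma adjusted p = 1.00). The 3 LPS arrays lay within a narrow range, well above all arrays with the drug.

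H1f3, another linker histone, had 10.61, 10.66 and 10.84 in 6-MP + LPS and 11.09, 11.69 and 11.28 in LPS (-0.65 ± 0.19), a decrease of less than 2-fold and with no overlap. Of the 9 listed linker histones 7 were measured, of which 2 fell, against 1.4% of all clusters, none rose and 5 did not pass (median -0.29, or -0.03 without array 3 of 6-MP + LPS and -0.06 without array 2 of LPS). Both H1f1 and H1f3 also fell in 6-MP against control, with differences of -0.66 ± 0.22 and -0.44 ± 0.19.

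The promoter of H1f1 is shown because replication-dependent histone genes are regulated together in S phase. Its 250 bases before the start site, from RefSeq (GRCm38.p6, chr13:23763418-23763667, plus strand), were searched on both strands for the H1 box AAACACA and for CCAAT, the core of the box next to it. Capitals mark the match to CCAAT, 56 to 52 bases before the start site.
H1f1: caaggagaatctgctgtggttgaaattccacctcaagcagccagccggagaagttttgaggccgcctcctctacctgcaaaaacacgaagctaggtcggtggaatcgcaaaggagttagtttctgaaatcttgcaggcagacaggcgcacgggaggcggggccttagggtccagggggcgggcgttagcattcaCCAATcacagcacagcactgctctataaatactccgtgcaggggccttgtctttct
CCAAT occurred in 37.5% of all promoters and in 6 of the 7 linker histones. The letters AAACACA were not in this window of H1f1, and occurred in 7.2% of all promoters and in 4 of the 7 linker histones, H1f3 among them.

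The replication-dependent core histones, which form the nucleosome and are made in S phase, moved in the same direction with smaller changes. Of 54 listed genes 47 were measured and 44 lay above the silent level. 44 of the 47 differences were below 0, with a median of -0.36 against 0.00 over all clusters and -0.06 over clusters of a mean between 10 and 12. 14 core histone genes fell at an unadjusted p under 0.05, none of them by 2-fold, against 1.4% of all clusters lower at that p. 32 did not pass, and 1, H2bu2, rose while under the silent level in both groups. In 20 of the 47 the 3 arrays of 6-MP + LPS all lay below the 3 of LPS, against 3.55% of all clusters. Near-identical copies of these genes share probe sequence, so that single members are uncertain and the members are not independent of each other.

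Among the brightest that fell, H2ac24, a gene of histone H2A, had 15.18, 15.53 and 15.82 in 6-MP + LPS and 15.98, 16.10 and 15.90 in LPS (-0.48 ± 0.18). H2ac15, another H2A gene, had 14.41, 14.67 and 15.15 in 6-MP + LPS and 15.44, 15.60 and 15.24 in LPS (-0.68 ± 0.21). H2ac20, also of H2A, fell with a difference of -0.44 ± 0.15, and the histone H4 gene H4c18 with -0.40 ± 0.18. The groups did not overlap in these 4 genes, and array 3 of 6-MP + LPS came nearest to LPS in both H2ac24 and H2ac15.

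The mean over all 47 core histones was 12.07, 12.15 and 12.48 in 6-MP + LPS, 12.54, 12.73 and 12.51 in LPS, 12.71, 12.72 and 12.78 in 6-MP and 12.88, 13.07 and 12.74 in control. The groups of arrays under LPS did not overlap, although array 3 of 6-MP + LPS and array 3 of LPS were nearly level, and the LPS group itself lay below control. The number of core histones lower at the unadjusted threshold depended on single arrays: it was 28 without array 3 of 6-MP + LPS, 9 without array 1 of 6-MP + LPS and 7 without array 2 of LPS. Without the 4 arrays that stood apart it was 0, with 41 of 47 still below 0 and a median of -0.22. In 6-MP against control, on other arrays, the median was -0.14, with 42 of 47 below 0 (48.6% of all clusters) and 1 lower at the unadjusted threshold (0.905% of all clusters).

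**Figure D3:**
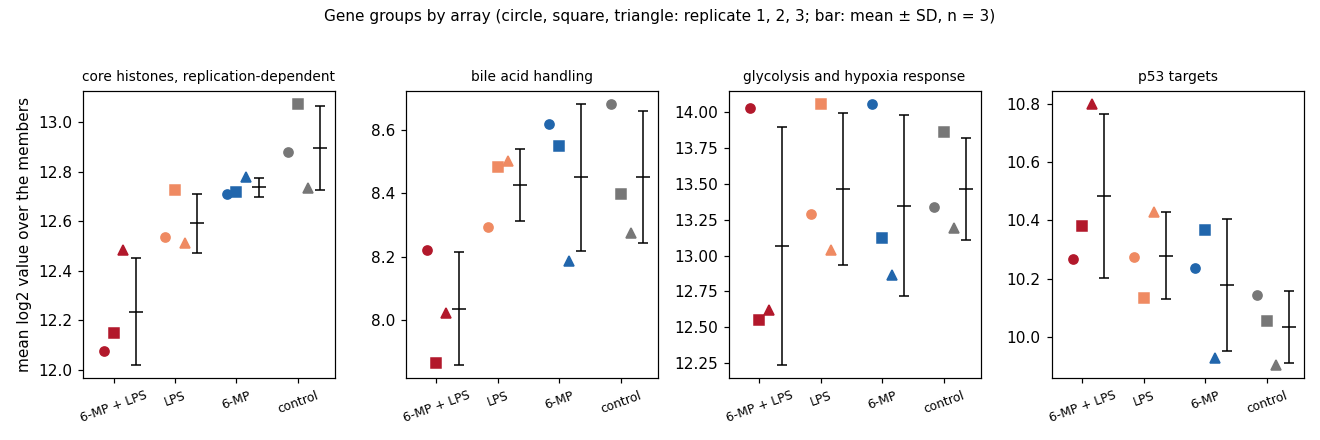
Mean log2 value over the members of 4 gene groups by array (y axis, 1 panel a group) in 6-MP + LPS, LPS, 6-MP and control, with symbols for the replicate numbers and a bar for the mean ± SD of 3 arrays. The core histones of the 3 arrays of 6-MP + LPS (12.07 to 12.48) lie below those of the LPS arrays (12.51 to 12.73), whereas the genes of glycolysis and hypoxia are highest in array 1 of 6-MP + LPS and array 2 of LPS.

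Other genes of the cell cycle differed less. Of 36 listed genes of DNA replication 34 were measured, 1 fell (Fen1, the flap endonuclease, -0.58 ± 0.26), 1 rose (Ung, the uracil DNA glycosylase, under the silent level in both groups) and 32 did not pass (median -0.15). Pcna, the sliding clamp of the replication fork and the brightest of them, differed by 0.04 ± 0.21. Of 22 measured genes of mitosis 2 fell, against 1.4% of all clusters, and 20 did not pass (median -0.15). Cdk1, the kinase that drives entry into mitosis, had 9.58, 10.26 and 9.91 in 6-MP + LPS and 10.61, 10.47 and 10.54 in LPS (-0.62 ± 0.20), and Cdc20, an activator of the anaphase-promoting complex, fell with a difference of -0.57 ± 0.22. Neither gene overlapped between the groups, as was the case for 3.55% of all clusters in this direction, while the proliferation marker Mki67 differed by -0.07 ± 0.24.

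Targets of the transcription factor p53, which responds to DNA damage, lay above 0 more often than below. Of 30 listed targets 27 were measured, with 22 differences above 0 (50.7% of all clusters) and a median of 0.25, but none rose at the unadjusted threshold. 1 fell, Dram1, a lysosomal membrane protein of autophagy, with a difference of -0.68 ± 0.26 and overlapping groups. The brightest members were Ccng1, the gene of cyclin G1, with a difference of 0.42 ± 0.35, Cdkn1a, the cell cycle inhibitor p21, with 0.22 ± 0.28, and Mdm2, the ubiquitin ligase of p53, with 0.34 ± 0.27. The mean over the 27 genes was 10.27, 10.38 and 10.80 in 6-MP + LPS and 10.28, 10.13 and 10.43 in LPS, so that array 3 of 6-MP + LPS was the highest and the other 2 overlapped with LPS. Without that array the median was 0.03, and without array 2 of LPS it was 0.14.

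Most of the inflammatory genes that LPS induces did not pass the unadjusted threshold. Tnf, the gene of tumour necrosis factor, had 12.33, 13.76 and 13.94 in 6-MP + LPS and 13.34, 12.32 and 13.03 in LPS (0.45 ± 0.50). The groups overlapped, with array 1 of 6-MP + LPS at the level of array 2 of LPS. Il6, the gene of interleukin 6, had 13.59, 12.43 and 13.47 in 6-MP + LPS and 12.55, 13.55 and 13.59 in LPS (-0.06 ± 0.59), with 1 low array in each group. Il1b, the gene of interleukin 1 beta, had 13.93, 13.86 and 14.47 in 6-MP + LPS and 14.12, 14.16 and 14.48 in LPS (-0.17 ± 0.50). With these standard errors a difference of 2-fold in any of the 3 genes would not have passed. Of 34 cytokines and growth factors of immune cells 1 passed, Il20, which was under the silent level in both groups, and 33 did not pass (median -0.18).

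Among the CXC chemokines, Cxcl9, a ligand of CXCR3 that draws T cells, fell, and the other members did not pass the unadjusted threshold. Cxcl9 had 12.37, 11.94 and 10.71 in 6-MP + LPS and 12.74, 13.74 and 12.36 in LPS (-1.28 ± 0.51). Array 1 of 6-MP + LPS lay just above array 3 of LPS, so that the groups overlapped. The call was lost without array 3 of 6-MP + LPS (-0.79) and without array 2 of LPS (-0.88).

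Cxcl5, a ligand of CXCR2 that draws neutrophils, had 12.28, 12.20 and 13.53 in 6-MP + LPS and 13.37, 13.47 and 14.60 in LPS (-1.14 ± 0.59). In both groups array 3 was about 1 unit above the other arrays, a spread that the unpaired fit counts as error. The difference passed both limits without array 3 of 6-MP + LPS (-1.57). It also did in a fit to the 6 arrays of the 2 groups alone (-1.14). Cxcl1 and Cxcl2, further ligands of CXCR2, differed by -0.29 ± 0.41 and -0.18 ± 0.62, and Cxcl10, another ligand of CXCR3, by 0.09 ± 0.55. All 15 listed CXC chemokines were measured, of which 1 fell, none rose and 14 did not pass, with a median of -0.18 (0.05 without array 1 of 6-MP + LPS, -0.41 without array 2 and -0.01 without array 3 of LPS).

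Ccl12, a mouse chemokine that draws monocytes through CCR2, was the other induced chemokine that fell. It had 10.57, 10.11 and 9.06 in 6-MP + LPS, 10.84, 11.17 and 10.98 in LPS, 7.18, 7.27 and 6.42 in 6-MP and 8.39, 7.44 and 7.96 in control. It was 2.12-fold lower in 6-MP + LPS than in LPS (-1.09 ± 0.37) and lower in 6-MP than in control (-0.97 ± 0.37). In both pairs all 3 arrays with the drug lay below those without it. The call under LPS was lost without array 3 of 6-MP + LPS (-0.66). Of 23 CC, XC and CX3C chemokines 1 other passed, Ccl1, which was under the silent level in both groups, and the brightest, Ccl3, differed by -0.11 ± 0.38.

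Stra6, the membrane receptor for retinol-binding protein, was raised by LPS (LPS minus control 1.72, limma adjusted p = 0.000699) and fell with 6-MP. It had 8.78, 9.17 and 8.97 in 6-MP + LPS, 9.62, 10.39 and 10.16 in LPS, 8.08, 8.16 and 7.82 in 6-MP and 8.25, 8.50 and 8.26 in control. The difference under LPS was -1.08 ± 0.21, with every array of 6-MP + LPS between the control and the LPS arrays. The call was lost on the fold without array 1 of 6-MP + LPS (-0.99) and without array 2 of LPS (-0.92). Of 23 measured genes of retinoid uptake, synthesis and response, Stra6 was the only one past the unadjusted threshold.

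Of the NR4A receptors, Nr4a3 fell. It had 6.54, 5.71 and 5.83 in 6-MP + LPS and 6.82, 7.16 and 7.11 in LPS, and fell by 1.00 ± 0.25 on the log2 scale, with no overlap but near the silent level. Because the difference is at the limit of 2-fold, it dropped under it without array 2 (-0.84) or array 3 (-0.91) of 6-MP + LPS, without array 2 (-0.94) or array 3 (-0.96) of LPS, and after median centring (-0.98). Nr4a1 had 7.58, 7.41 and 7.67 in 6-MP + LPS and 7.85, 7.54 and 7.20 in LPS (0.02 ± 0.23), and Nr4a2 differed by -0.23 ± 0.35. Of 25 genes in the list of NR4A receptors and immediate early genes, Nr4a3 alone passed the unadjusted threshold (median -0.03).

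Few genes of the NF-kB pathway passed, and none in the lists of antiviral interferon-stimulated genes and interferon-induced GTPases. Of 23 genes of the NF-kB pathway and its feedback inhibitors 1 fell, Zc3h12a, the ribonuclease Regnase-1 that degrades cytokine transcripts (-0.65 ± 0.25), and 22 did not pass (median -0.15). The ubiquitin ligase gene Birc3 differed by -0.17 ± 0.31 and the inhibitor gene Nfkbia by -0.37 ± 0.36. None of 33 antiviral interferon-stimulated genes passed the unadjusted threshold (median -0.04), nor did any of 11 measured guanylate-binding proteins and immunity-related GTPases (median 0.11). Cxcl9, which fell, is itself induced by interferon and stood in the list of CXC chemokines. Beside these, 17 genes of MHC class I presentation (median -0.20) had none past the threshold, and 17 genes of LPS recognition and Toll-like receptor adaptors had 1 that fell, Lbp, the LPS-binding protein (-0.83 ± 0.37).

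Genes that handle the drug itself did not pass. None of 18 measured genes of thiopurine metabolism and transport passed the unadjusted threshold (median -0.04), nor did any of 20 genes of purine synthesis and salvage (median -0.24).

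**Figure D4:**
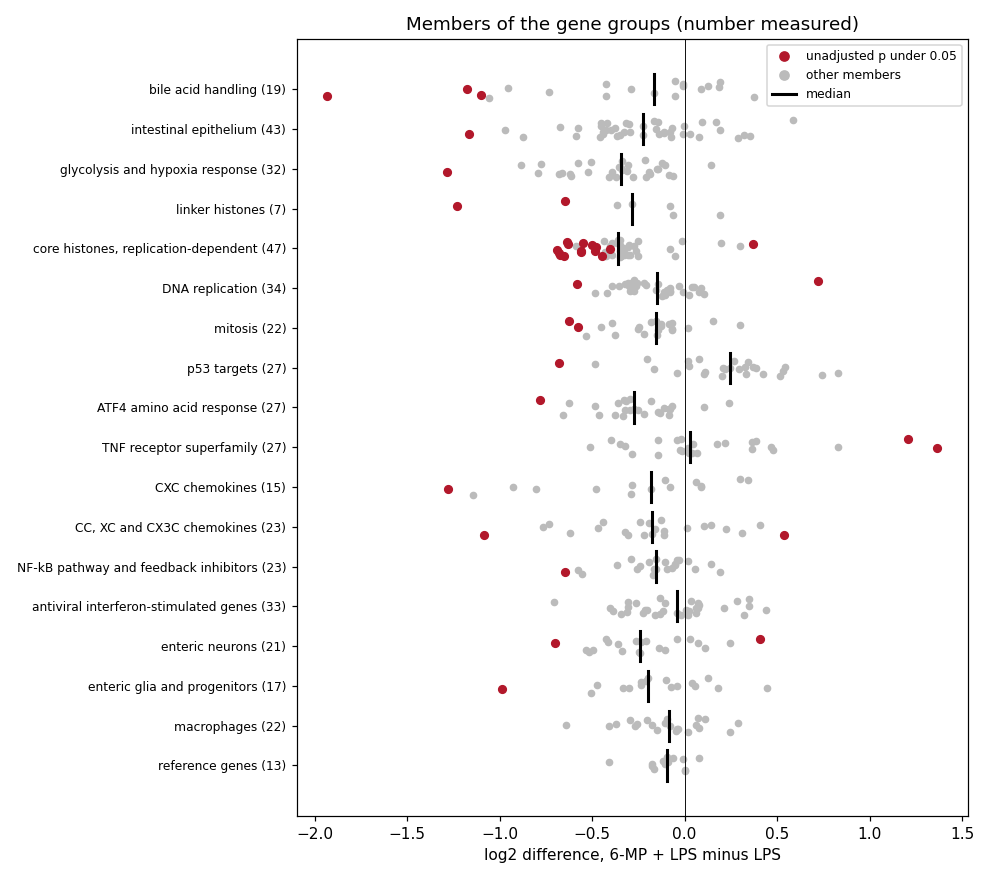
Log2 differences between 6-MP + LPS and LPS (x axis) of the members of 18 gene groups (rows, with the number measured), with members at an unadjusted p under 0.05 in red and a black bar at each median. The core histones lie almost wholly below 0 (median -0.36) with 14 members lower, whereas the p53 targets lie mostly above 0 (median 0.25) with none higher at that threshold.

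2 receptors of the tumour necrosis factor superfamily rose. Tnfrsf22 and Tnfrsf23, neighbouring mouse genes of decoy receptors that bind TRAIL without passing on a death signal, had 9.86, 9.69 and 10.87 (Tnfrsf22) and 12.83, 11.99 and 12.40 (Tnfrsf23) in 6-MP + LPS, and 8.74, 8.53 and 9.06 (Tnfrsf22) and 10.91, 11.23 and 11.44 (Tnfrsf23) in LPS. Tnfrsf22 was 2.58-fold (1.37 ± 0.37) and Tnfrsf23 2.31-fold (1.21 ± 0.36) higher in 6-MP + LPS. All 3 arrays with the drug lay above all 3 without it for both genes.

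Without LPS both rose as well. Tnfrsf22 had 10.25, 11.04 and 9.44 in 6-MP and 9.16, 9.02 and 9.07 in control (1.16 ± 0.37), and Tnfrsf23 12.60, 13.12 and 11.91 in 6-MP and 11.76, 11.93 and 10.78 in control (1.06 ± 0.36). For Tnfrsf22 the arrays did not overlap in this pair either, while array 3 of 6-MP reached the upper control arrays for Tnfrsf23. Tnfrsf22 kept its call under LPS without any 1 of the 6 arrays, and Tnfrsf23 came to just under 2-fold without array 1 of 6-MP + LPS (1.00). The 2 genes are close relatives, and the part of shared probe sequence was not tested. Of 27 measured receptors of the superfamily these were the 2 that passed the unadjusted threshold, against 3.6% of all clusters (median 0.03). Tnfrsf26, their neighbour, differed by 0.47 ± 0.30, with overlapping groups.

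Dnah8, a heavy chain of axonemal dynein, also rose in both pairs. It had 7.31, 7.86 and 7.64 in 6-MP + LPS, 6.59, 5.54 and 6.85 in LPS, 6.92, 7.81 and 7.66 in 6-MP and 6.60, 5.88 and 6.60 in control. The difference was 1.28 ± 0.35 under LPS and 1.10 ± 0.35 without it. The groups were apart in both pairs, and array 2 of LPS was under the silent level. Without that array the difference under LPS was 0.88.

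Tll1 and Aldh3b2 rose without overlap. Tll1, a metalloproteinase of the tolloid family, had 8.95, 9.43 and 9.99 in 6-MP + LPS and 8.44, 7.77 and 8.92 in LPS (1.08 ± 0.38). Aldh3b2, an aldehyde dehydrogenase, had 7.15, 8.02 and 8.47 in 6-MP + LPS and 7.002, 6.45 and 6.67 in LPS (1.17 ± 0.38). In both genes array 1 of 6-MP + LPS was the lowest with the drug and came close to the highest LPS array. Tll1 lost its call without array 3 of 6-MP + LPS (0.82) or array 2 of LPS (0.78), and Aldh3b2 without array 3 of 6-MP + LPS (0.88).

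The olfactory receptor Olfr1228 had 6.60, 6.65 and 6.21 in 6-MP + LPS and 5.50, 5.48 and 5.48 in LPS, which is under the silent level. It was at least 1.64-fold higher in 6-MP + LPS, with the LPS values raised to that level, and its fitted difference dropped under the limit of 2-fold without array 1 (0.94) or array 2 (0.92) of 6-MP + LPS or array 3 of LPS (1.00).

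Ly6g6c, a small membrane-anchored protein of the Ly6 family that is named here after its values were seen, rose, with the largest difference and overlapping groups. It had 6.26, 9.76 and 9.74 in 6-MP + LPS and 6.44, 5.80 and 5.72 in LPS (2.60 ± 1.04). 2 arrays of 6-MP + LPS were high and array 1 of that group was at the level of LPS, while 1 control array also reached 10.00. The call was lost without array 2 (2.01) or array 3 (2.02) of 6-MP + LPS and without array 2 (2.50) or array 3 (2.46) of LPS.

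Ephx1, the microsomal epoxide hydrolase of xenobiotic metabolism, rose by just under 2-fold, with 9.34, 9.80 and 10.20 in 6-MP + LPS and 8.77, 8.45 and 9.14 in LPS (0.99 ± 0.28). It also rose in 6-MP against control (1.08 ± 0.28), and the arrays under LPS did not overlap. Another member of the list of NRF2 and xenobiotic enzymes, the glutathione transferase gene Gsta3, fell with a difference of -0.64 ± 0.19, and the other 29 of 31 measured did not pass (median 0.03).

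In 2 further lists nearly all differences lay below 0, against 49.3% of all clusters. In each list 1 member fell, against 1.4% of all clusters. Of 32 measured genes of glycolysis and the hypoxia response 31 lay below 0 (median -0.34), and Car12 alone fell, while Gapdh, the brightest, differed by -0.06 ± 0.17. The mean over these genes was 14.03, 12.55 and 12.62 in 6-MP + LPS and 13.29, 14.06 and 13.04 in LPS. It was highest in the array of each group that stood apart, and the groups overlapped. Without array 1 of 6-MP + LPS the median was -0.79 with 11 genes lower, without array 2 of 6-MP + LPS it was -0.10, without array 3 of 6-MP + LPS -0.14 and without array 2 of LPS -0.05. Without the 4 arrays that stood apart it was -0.52 with 14 genes lower. In 6-MP against control 30 of the 32 genes lay below 0 (48.6% of all clusters), with a median of -0.10.

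Of 27 measured genes of the ATF4 amino acid response 25 lay below 0 (median -0.27). In 6-MP against control 25 of the 27 lay below 0 as well (median -0.17). Stc2, the gene of stanniocalcin 2, fell with a difference of -0.78 ± 0.33 and overlapping groups. Asns, the asparagine synthetase and the brightest member, had 16.10, 16.14 and 15.97 in 6-MP + LPS and 16.58, 16.10 and 16.42 in LPS (-0.29 ± 0.19).

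Of the genes of the enteric nervous system itself, 2 fell by just under 2-fold, and each was the only gene of its list that fell. Vip, the gene of vasoactive intestinal peptide, an inhibitory transmitter of the gut, had 7.79, 7.94 and 7.49 in 6-MP + LPS and 8.43, 9.39 and 8.32 in LPS (-0.98 ± 0.29). Fabp7, a fatty acid-binding protein of glia and their progenitors, had 8.35, 8.85 and 7.79 in 6-MP + LPS and 9.66, 9.43 and 8.86 in LPS (-0.99 ± 0.38). Neither gene overlapped between the groups, as was the case for 3.55% of all clusters in this direction. For Fabp7 array 2 of 6-MP + LPS and array 3 of LPS were nearly level.

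Map2, a microtubule protein of neurons, rose by 0.41 ± 0.17. Of 21 measured neuronal genes Map2 rose, Nrsn1 fell (-0.70 ± 0.31) and 19 did not pass (median -0.24). Of 17 measured genes of enteric glia and progenitors Fabp7 fell and 16 did not pass (median -0.20). Of 27 measured enteric transmitters and neuropeptides Vip fell, 1 gene rose and 25 did not pass (median -0.13). Over all clusters 1.4% were lower and 2.21% higher at that threshold. None of 22 measured macrophage genes passed (median -0.09), and none of 13 reference genes did (median -0.09).

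Gsdmc, a gasdermin, had 5.79, 5.91 and 4.80 in 6-MP + LPS, with a mean under the silent level, and 7.95, 6.80 and 5.26 in LPS. With the 6-MP + LPS values raised to that level, its mean was 1.79-fold lower in 6-MP + LPS, and it did not pass the unadjusted threshold. Array 3 of LPS, itself under the silent level, was left at its own value, so that 1.79-fold is no strict lower bound. The LPS arrays were widely spread, and array 3 of LPS lay below 2 of the arrays with the drug. Without that array Gsdmc passed both limits, at least 2.92-fold lower, and without array 1 of LPS the fold taken this way was 1.15. Of the other 8 gasdermins 1 passed, Gsdma, which rose, with LPS values under the silent level. Gsdmd, the gasdermin cleaved by inflammatory caspases, differed by -0.30 ± 0.27.

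Of 23 measured trypsins and acinar enzymes of the pancreas 17 lay above 0 (median 0.31), and Ctrl, a chymotrypsin-like protease, alone passed the unadjusted threshold, with 7.19, 7.41 and 7.06 in 6-MP + LPS and 6.99, 6.62 and 6.95 in LPS (0.37 ± 0.16). Ctrb1, the chymotrypsinogen gene and the brightest of them, had 17.40, 17.77 and 16.08 in 6-MP + LPS and 17.72, 17.03 and 15.79 in LPS. The 4 acinar marker genes averaged 8.49 to 10.68 per array in 6-MP + LPS and 8.50 to 10.89 in LPS, a spread within each group that is larger than the differences of these genes, which lay between -0.36 and 0.16.

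3 of the 26 called clusters lay under the silent level in both groups and get no fold: Tmem100 (lower, limma adjusted p = 0.795), Gm5798 (lower) and Skint9 (higher). 1 called cluster, which was higher, has no gene name here.

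The same drug was also measured without LPS, on 6 other arrays. There 11 clusters were higher in 6-MP than in control (0.0495% of all clusters) and 3 lower (0.0135%), together 0.063%, and 0 passed the adjusted threshold. Of the 26 clusters called under LPS, 18 had the same sign in 6-MP against control, 6 of the 9 higher and 12 of the 17 lower ones. 5 passed the unadjusted threshold there in the same direction, against 2.13% of all clusters in either direction: Tnfrsf22, Tnfrsf23, Dnah8, H1f1 and Ccl12. Both contrasts share 1 estimate of the spread per cluster, on which the choice of the 26 also rests, so that 2.13% is not a like background. The median of the higher clusters was 1.18 under LPS and 0.60 without it, and that of the lower clusters -1.19 under LPS and -0.08 without it.

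The difference between both effects was tested as the interaction of LPS and 6-MP. It was called for 67 of all clusters (0.302%) and for 0 at the adjusted threshold. 12 of the 26 clusters had an unadjusted interaction p under 0.05, against 1.95% of all clusters, in a contrast that shares the arrays under LPS with the choice of the 26. Fabp6 differed by -0.35 ± 0.42 in 6-MP against control (interaction -1.58 ± 0.59), Slc10a2 by 0.24 ± 0.38 (interaction -1.42 ± 0.54) and Nr1h4 by -0.02 ± 0.34 (interaction -1.08 ± 0.48). For H1f1 (-0.57 ± 0.31), Ccl12 (-0.11 ± 0.52), Tnfrsf22 (0.21 ± 0.53), Tnfrsf23 (0.15 ± 0.51) and Dnah8 (0.17 ± 0.50) the interaction did not pass, which with standard errors of this size does not show that the effects were alike.

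**Figure D5:**
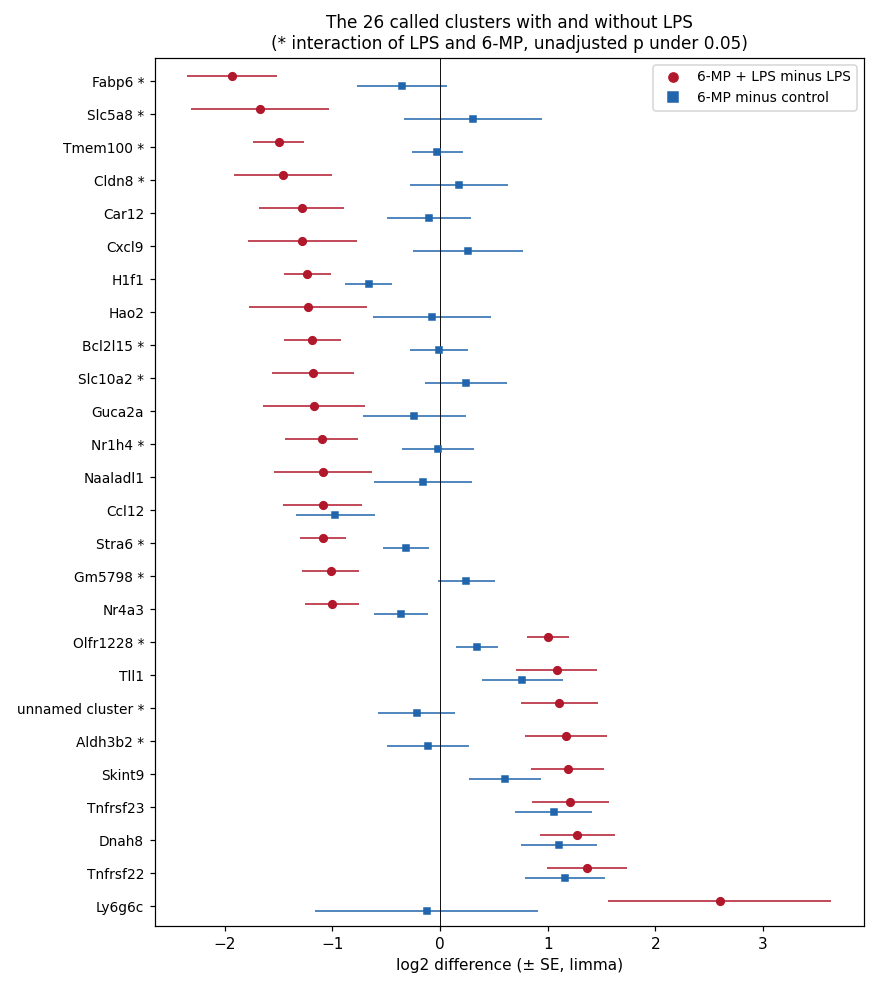
Log2 differences (x axis, ± SE from limma) of the 26 called clusters in 6-MP + LPS minus LPS (red circles) and in 6-MP minus control (blue squares), which share no array but the estimate of the spread, with Tmem100, Gm5798 and Skint9 under the silent level in both groups under LPS. Tnfrsf22, Tnfrsf23, Dnah8, H1f1 and Ccl12, which passed the unadjusted threshold in both, lie on the same side of 0, whereas Fabp6 lies at -1.93 under LPS and at -0.35 without it.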

How the data were processed

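The arrays were Clariom S, read by the authors with version 4.0.1.36 of the Transcriptome Analysis Console. The deposited values are log2 values per transcript cluster and array, whose summarisation, normalization and genome build are not given in the sources used here. Of 28846 entries, 6640 controls were left out. Of the 22206 clusters, 19572 have 1 symbol on the platform, 40 more were named by the supplement and 2594 have none. For symbols with several clusters (56) the brightest was taken.

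Limma 3.58.1 in R 4.3.3 was fitted to 4 group means over 12 arrays (8 residual and 4.25 prior degrees of freedom), with no filter on low values. Standard errors in the text are those of this fit, and adjusted p-values are by Benjamini-Hochberg over all clusters. An exact permutation test of 3 arrays against 3 cannot reach a p under 0.1, so none was used, and limma's unadjusted p of single genes is given only as passed or not passed. P-values rest on the spread between replicate cultures within the 4 groups, pooled over the 12 arrays and moderated by the prior, with no pairing by experiment.

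Members and lists were chosen with earlier results of these data known, so the lists are described by counts and medians only. Named are clusters past both limits with 1 symbol and no overlap (up to 12 per direction, not dim), genes the study names, and list members as examples, called or brightest first. Genes named otherwise are Hao2, Ly6g6c, Tnfrsf26, Slc51a, Slc51b, Abcg5, Ccl1, Ung, Nrsn1, Lbp, Il20, Gsdma, Tmem100, Gm5798 and Skint9, chosen after their values were seen. Promoters are RefSeq's. The fits were tested on simulated data. Alternatives were a fit to 6 arrays, a block for the replicate number, a trend of variance with intensity, median centring or quantile normalization of the arrays, a filter on dim clusters or on ambiguous names, the methods' t-test on the same values, the 4 arrays that stand apart as a covariate or left out, a 1.5-fold limit, and leaving out each array in turn, after which 2 arrays of its group remained.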

Additional observations from a re-analysis of the deposited data

Results flagged for a closer look

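For 11 named clusters called under LPS, the effect of 6-MP under LPS and its effect without LPS differed at an unadjusted interaction p under 0.05, with adjusted p-values of 1.00 in limma. The interaction is (6-MP + LPS minus LPS) minus (6-MP minus control) on the log2 scale. It was negative for Slc5a8 (-1.98), Cldn8 (-1.63), Fabp6 (-1.58), Slc10a2 (-1.42), Bcl2l15 (-1.17), Nr1h4 (-1.08) and Stra6 (-0.77). It was positive for Aldh3b2 (1.28) and, with LPS values under the silent level, for Olfr1228 (0.66). Tmem100 and Gm5798 lay under the silent level in both groups under LPS, so that their values of -1.47 and -1.26 have no order among the others and stand for no fold. These clusters were chosen by the contrast under LPS, which is itself part of the interaction.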

How the results depend on the processing

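The count of called clusters, 9 higher and 17 lower, was within 1.5 times of these in the other fits except those named here. Leaving out single arrays gave 18 to 39 higher and 23 to 165 lower, leaving out the 4 arrays that stand apart 32 and 63, and a limit of 1.5-fold 199 and 146. The count at the adjusted threshold was 0 in every fit. The 800 clusters at an unadjusted p became 521 without dim clusters and 1431 with the standing apart as a covariate. Of these 800, 61.3% were higher, against 70.0% after median centring, 53.5% after quantile normalization, 50.3% without dim clusters and 41.6% without array 1 of 6-MP + LPS. Without the 4 arrays, the called interaction clusters numbered 190 in place of 67 and those of 6-MP minus control 45 in place of 14. The bile acid median of -0.17 was -0.42 without dim clusters and -0.39 as a mean. The causes were not tested.

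With the replicate number as a block, the counts were 10 higher and 17 lower. Whether equal numbers mean a shared experiment is not known. Same-numbered arrays of 6-MP + LPS and LPS deviated together with r = -0.43, -0.45 and 0.43. Array 1 of 6-MP + LPS deviated most like array 2 of LPS (0.65), and array 2 of 6-MP + LPS most like array 1 of LPS (0.50). The arrays numbered 3 deviated most like each other. The labels do not say which arrays share an experiment, so no fit matched them this way, and all counts and overlaps are those of an unpaired comparison.

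Genes near 0 changed sign without single arrays: Il6 (-0.40 to 0.30), Cxcl1 (-0.83 to 0.0242), Cxcl2 (-0.56 to 0.27), Cxcl10 (-0.0130 to 0.29), Nr4a1 (-0.14 to 0.18), Nr4a2 (-0.52 to 0.0132), Abcc2 (-0.31 to 0.11), Cdkn1a (-0.0095 to 0.47), Gapdh (-0.15 to 0.0381), Muc13 (-0.57 to 0.12), Ctrb1 (-0.29 to 0.74), Ccl3 (-0.37 to 0.15), Birc3 (-0.40 to 0.11), Mki67 (-0.26 to 0.12, and 0.13 without the 4 arrays) and Pcna (-0.14 to 0.25). Of the 26 called clusters, 7 kept their call without any 1 array, 4 in 5 of the 6 fits and 15 in 4 or fewer. With all 6 arrays, calls were lost for Nr4a3 and Gm5798 after median centring, for Olfr1228, Hao2, Ccl12 and Naaladl1 after quantile normalization, and for Hao2, Guca2a, Cxcl9, Tll1, Car12, Ccl12, Ly6g6c and the unnamed cluster with the methods' t-test. Without the 4 arrays, Olfr1228, Guca2a, Skint9, Slc10a2, Stra6, Gm5798 and the unnamed cluster lost theirs.

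The number of arrays, 3 a group, and the signal over the silent level limit the precision. Background was read from receptor genes only.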
